A study of Homo sapiens with 12 samples.

Results

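The E2F family is the set of 8 genes, E2F1 to E2F8, that encode the transcription factors gating entry into S phase. The members were taken by gene symbol from a list of these 8 names, out of 58051 genes in each count table. All 8 were found, and all 8 passed the filter on low counts in each comparison below. E2F proteins bind promoters of genes for DNA replication and cell division, the typical members as dimers with a DP protein. E2F1, E2F2 and E2F3 mainly activate these genes once cyclin-dependent kinases release them from the retinoblastoma protein, while E2F4 and E2F5 mainly repress them together with the pocket proteins RBL1 and RBL2. E2F6 represses through Polycomb-type complexes, and E2F7 and E2F8, the atypical members, repress without a DP partner and are themselves E2F targets that dampen the activators.

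Human renal carcinoma cell lines, each labelled as clear cell carcinoma, received a synthetic oligonucleotide at 10 nM, and RNA was taken 48 h later. 786-O cells received a miR-29 mimic (1 library) or a control mimic (1 library), A-498 cells a miR-29 mimic (2 libraries) or a control mimic (2 libraries), and ACHN cells a miR-29 inhibitor (3 libraries) or a control inhibitor (3 libraries). miR-29 is a microRNA family known for silencing collagen and other matrix genes, and the study asked how raising or blocking it changes gene expression in these lines. The lines were treated in 1 direction each, so the inhibitor was given to ACHN only and the line cannot be told apart from the kind of oligonucleotide. Expression levels are given as reads per 1e6 reads in genes, scaled within each line (CPM), and fold changes come from a fit within each line.

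Reads in genes numbered 39919554 to 70027392 per library. In ACHN the 3 control libraries (39919554 to 48626762 reads) were shallower than the 3 inhibitor libraries (52369886 to 70027392 reads). The 786-O control and mimic libraries had 45.7% and 48.0% of reads not counted in a gene, against 40.6% at most in the other lines. Reads that fell in no gene numbered 11856087 in the 786-O control and 15648176 with the mimic. Of 9 renal epithelial markers, 8 or 9 reached 1 CPM in each line, and of 5 clear cell carcinoma markers A-498 had 4 at this level and the other lines 3 each, with CA9 under 1 CPM in 786-O and ACHN. None of 4 endothelial and none of 4 leukocyte markers reached 1 CPM, while of 4 fibroblast markers 2 did in 786-O and 1 each in A-498 and ACHN.

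The seed of miR-29 and the E2F transcripts that hold a match to it are shown first. Whether any E2F change below runs through such a match was not tested. The 3 mature human miR-29 sequences of RefSeq (GRCh38.p14) share bases 2 to 8, in capitals.
hsa-miR-29a-3p: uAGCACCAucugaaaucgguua
hsa-miR-29b-3p: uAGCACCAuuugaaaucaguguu
hsa-miR-29c-3p: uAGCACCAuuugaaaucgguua

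Matches were searched on the transcribed strand of the longest annotated 3′ UTR of each member, as TGGTGCT (complement of the whole seed), GGTGCTA (a 7-base match that ends in an A) and the core GGTGCT that both contain. E2F1 held 1 whole-seed match, 451 bases after the stop codon in a UTR of 1255 bases (chr20:33676275-33676281, minus strand, GRCh38). E2F7 held 1 match that ends in an A, at base 2608 of a UTR of 2891 bases (chr12:77021525-77021531, minus strand). The windows are printed with the match in capitals.
E2F1: tcccagaatcTGGTGCTctgaccaggccag
E2F7: ctttttgtaaGGTGCTAtttctgtatttaa
E2F2 held the 6-base core at 2 places and E2F6 at 1, and the longest UTRs of E2F3, E2F4, E2F5 and E2F8 held none. Over 18985 protein-coding genes with a UTR, 15.1% held a whole-seed match and 17.9% a match of at least 7 bases. Among genes with a UTR of like length to that of E2F7, 27.7% held a match of at least 7 bases, and 14.8% did among those like E2F1. The words describe these sequences and not a site in use.

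Promoters of the members were searched for the E2F motif, and those that held a match are shown. The motif was searched on both strands as TTTCCCGC, TTTGGCGC, TTTCGCGC and TTTGCCGC, in windows from 250 bases before to 50 bases after the start site (RefSeq, GRCh38.p14). Of 7 promoters that belong to 6 members, 3 held a match, and 3.31% of 35116 promoters of this length did. The E2F1 promoter (chr20:33686336-33686635, minus strand) held 2 matches, at -33 and -20 from the start site, which 0.145% of promoters equalled or passed. The E2F2 promoter (chr1:23531184-23531483, minus strand) held 1 at -42, and the first of 2 E2F3 promoters (chr6:20401629-20401928, plus strand) held 1 at -53. The stretches around the matches are printed with the matches in capitals, a match on the other strand being written as it stands on the gene's strand.
E2F1: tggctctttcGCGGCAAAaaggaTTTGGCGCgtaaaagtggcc
E2F2: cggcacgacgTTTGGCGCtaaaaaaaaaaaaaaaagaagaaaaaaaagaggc
E2F3: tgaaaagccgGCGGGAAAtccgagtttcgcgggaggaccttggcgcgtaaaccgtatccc
The windows of the second E2F3 promoter, E2F4, E2F6 and E2F7 held none of these words, and no window was available for E2F5 or E2F8.

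Levels of different genes are set side by side per kilobase of exon, with all annotated exons of a gene joined. This length can exceed that of the transcript in use, by amounts that differ between genes. The order and shares of members given below depend on it. By this measure E2F4 was the highest member in the control cells of all 3 lines. It stood at 18.4 CPM per kb in 786-O, 32.8 ± 1.49 (SD, n = 2) in A-498 and 52.9 ± 1.45 (SD, n = 3) in ACHN. E2F2 was the lowest member in every group, between 0.871 CPM per kb in 786-O controls and 2.77 in 786-O cells with the mimic. E2F7 was second in the controls of 786-O (17.4 CPM per kb) and ACHN (26.8 ± 2.29), but below E2F1, E2F3, E2F4 and E2F6 in A-498 (5.72 ± 0.293), where E2F1 was second (17.6 ± 0.698). In ACHN controls the values of E2F3 (8.07 ± 0.292) and E2F6 (7.81 ± 0.0640) overlapped. The remaining neighbours in the order of the ACHN and A-498 controls did not, the latter with 2 libraries only. The single 786-O control library cannot show an overlap.

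The control cells of A-498 and ACHN allow a test that did not enter the choice of the family. In edgeR's quasi-likelihood test, adjusted over all genes, 5 members were lower and 1 was higher in A-498 than in ACHN, where 38.7% of 19689 genes were lower and 41% higher (79.8% in all). The E2F7 transcript was 4.86-fold lower in A-498 than in ACHN (log2 difference -2.28 ± 0.062 SE, adjusted p = 6.84e-18, edgeR), and E2F1 was 2.40-fold higher (1.27 ± 0.056, adjusted p = 2.19e-14, edgeR). E2F4 was 1.67-fold lower and E2F2 1.46-fold lower, while E2F5 and E2F3 were lower by 1.20-fold and 1.15-fold. E2F6 (-0.10, 95% interval -0.21 to 0.01) and E2F8 (-0.06, -0.20 to 0.07) did not pass the test. The control oligonucleotide, a mimic in one line and an inhibitor in the other, cannot be told apart from the line.

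The treatments moved the family differently in each line. With the mimic in 786-O, 7 of 8 members were higher and E2F7 was lower. With the mimic in A-498, E2F1 and E2F8 fell while E2F3, E2F4, E2F5 and E2F6 rose. With the inhibitor in ACHN, E2F7 rose and 6 of the others fell. The family was chosen by its treated-against-control values in these lines, in particular the falls of E2F2 and E2F8 in ACHN, so the changes are given as a description with their errors and without p-values. The libraries are bulk RNA, in which fewer cycling cells and less E2F RNA per cell cannot be told apart.

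Counts of members past the threshold are given with the share over all genes, and nothing is read from them. At an adjusted p under 0.05 in edgeR, A-498 had 2 members down and 4 up, where 27% of 19676 genes were called lower and 25.5% higher (52.5% in all). With library size in place of TMM scaling, 58.7% of all A-498 calls were higher and with TMM 48.6%, and the calls of the 8 members were the same under both. In ACHN, 6 members were called lower and 1 higher, beside 14.4% and 17.3% of 17904 genes (31.7% in all). In 786-O, with 1 library a group and no test, 1 member lay below -0.5 and 5 above 0.5 on the log2 scale, beside 22.2% and 18.8% of 20370 genes (41% in all). The values of treated and control libraries did not overlap for any of the 8 members in A-498 or ACHN, as for 74.5% and 43.5% of all genes in these lines.

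**Figure D1:**
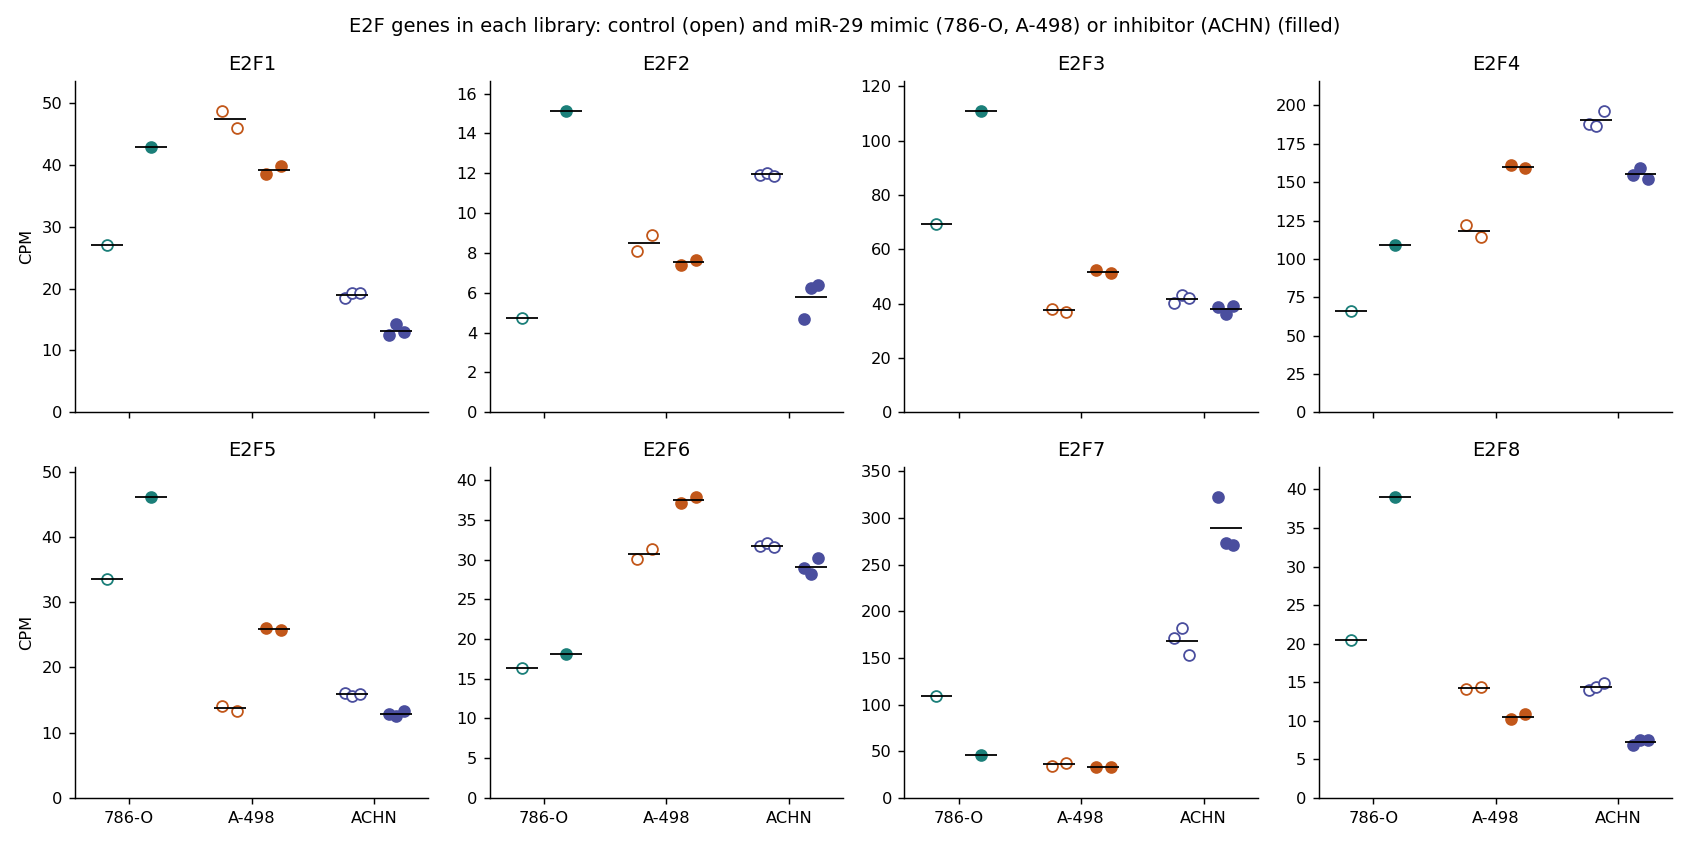
Each panel shows 1 E2F gene in CPM on a linear axis from 0, with open points for control libraries, filled points for libraries with the miR-29 mimic (786-O, A-498) or inhibitor (ACHN), and a bar at the group mean. E2F7 is low with the mimic in 786-O and high with the inhibitor in ACHN, while E2F1, E2F2 and E2F8 show the reverse in these lines.

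Among the activators, E2F1, the member best known for driving S-phase genes, stood at 27.0 CPM in the 786-O control and 42.9 CPM with the mimic, a 1.58-fold rise in the single pair (log2 0.66, counting interval 0.56 to 0.77 at 95%, exact binomial). In A-498 it stood at 48.7 and 46.0 CPM in controls and 38.5 and 39.8 CPM with the mimic. That was a fall of 1.21-fold (log2 -0.27 ± 0.052 SE), opposite in sign to 786-O. In ACHN the controls held 18.6, 19.3 and 19.2 CPM and the inhibitor libraries 12.5, 14.2 and 12.9 CPM, 1.44-fold lower (-0.53 ± 0.066). The E2F1 gene lies on the minus strand at chr20:33675477-33686385 (GRCh38).

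E2F2, an activator of lower abundance, had the largest ratio of any member in 786-O, from 4.75 CPM in the control to 15.1 CPM with the mimic (3.16-fold, log2 1.66, counting interval 1.44 to 1.90). It rested on 211 and 679 reads. In A-498 the controls held 8.09 and 8.89 CPM and the mimic libraries 7.41 and 7.67 CPM, a change that did not pass the test (-0.17, 95% interval -0.36 to 0.02). Without A-498 control replicate 1 it did (-0.25), and without control replicate 3 it was -0.11. In ACHN the controls lay close together at 11.92, 12.03 and 11.87 CPM, and the inhibitor libraries at 4.68, 6.21 and 6.41 CPM. E2F2 was thus 2.07-fold lower in ACHN (-1.05 ± 0.098), with inhibitor replicate 1 the lowest of the 3.

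E2F3, the third activator, went against E2F1 in A-498. It stood there at 38.2 and 37.0 CPM in controls and 52.3 and 51.3 CPM with the mimic, 1.38-fold higher (0.46 ± 0.049). In 786-O it went from 69.2 to 110.9 CPM (1.60-fold, log2 0.68). In ACHN it stood at 40.3, 43.3 and 42.1 CPM in controls and 38.9, 36.1 and 39.0 CPM with the inhibitor. The ACHN difference was the smallest of the called members (-0.14 ± 0.049), and leaving out control replicate 2, control replicate 3, inhibitor replicate 2 or inhibitor replicate 3 ended the call, with log2 fold changes of -0.12, -0.14, -0.11 and -0.16. Another transcript inside the gene on the same strand, E2F3-IT1, had 5 to 69 reads per library, beside 1684 to 4982 for E2F3.

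The canonical repressors, which act mainly in resting and early G1 cells, rose with the mimic in both lines that received it. E2F4 went from 66.2 to 108.9 CPM in 786-O (log2 0.72). In A-498 it stood at 121.9 and 114.3 CPM in controls and at 161.1 and 158.9 CPM with the mimic (1.35-fold, 0.44 ± 0.042). In ACHN it was 187.9, 186.8 and 196.3 CPM in controls and 154.5, 159.4 and 152.0 CPM with the inhibitor (1.23-fold lower, -0.29 ± 0.043).

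E2F5 showed the largest change of any member in A-498, from 14.1 and 13.4 CPM to 26.1 and 25.8 CPM (1.89-fold, 0.92 ± 0.064). In 786-O it went from 33.5 to 46.1 CPM (log2 0.46). In ACHN the controls held 16.1, 15.7 and 15.9 CPM and the inhibitor libraries 12.9, 12.6 and 13.3 CPM (-0.30 ± 0.063). E2F4 and E2F5 thus fell by nearly the same log2 amount in ACHN while differing in A-498. E2F5 overlaps RBIS on the opposite strand (1140 to 5754 reads), and the counting used strand.

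E2F6, the Polycomb-linked repressor, had the smallest change of any member in 786-O and in ACHN. It stood at 16.3 and 18.1 CPM in the 786-O control and mimic libraries (log2 0.15, counting interval 0.00 to 0.29). In A-498 it rose from 30.1 and 31.3 CPM to 37.1 and 37.9 CPM (1.22-fold, 0.29 ± 0.054). In ACHN it stood at 31.7, 32.0 and 31.5 CPM in controls and 28.9, 28.2 and 30.1 CPM with the inhibitor, and the difference did not pass the test (-0.13, 95% interval -0.23 to -0.02). With library size or median-of-ratios scaling it did.

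The atypical repressors parted from each other in 786-O and ACHN. E2F7 went from 109.5 to 46.2 CPM in 786-O, 2.37-fold lower and the only member that was lower there (log2 -1.24, counting interval -1.32 to -1.17). In A-498 its control values of 34.7 and 37.3 CPM lay just above the mimic values of 32.8 and 33.6 CPM, and the change did not pass the test (-0.12, 95% interval -0.24 to 0.00). Without A-498 control replicate 1 it did, at -0.18 ± 0.059, and without control replicate 3 it was -0.07. In ACHN E2F7 stood at 171.2, 181.7 and 153.2 CPM in controls and rose to 322.8, 273.0 and 270.8 CPM with the inhibitor (1.71-fold, 0.78 ± 0.065). E2F7, on the minus strand at chr12:77021248-77065569, was the only member higher with the inhibitor.

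E2F8, the other atypical repressor, went the opposite way, from 20.5 to 39.0 CPM in 786-O (1.91-fold, log2 0.93, counting interval 0.82 to 1.05). In A-498 it fell from 14.1 and 14.4 CPM to 10.3 and 10.9 CPM (1.35-fold lower, -0.43 ± 0.073). In ACHN the controls held 13.9, 14.4 and 14.9 CPM and the inhibitor libraries 6.83, 7.47 and 7.46 CPM (1.98-fold lower, -0.99 ± 0.073). The 3 control and 3 inhibitor values of E2F8 were each tight, and the gap between them was wider than either group's range.

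**Figure D2:**
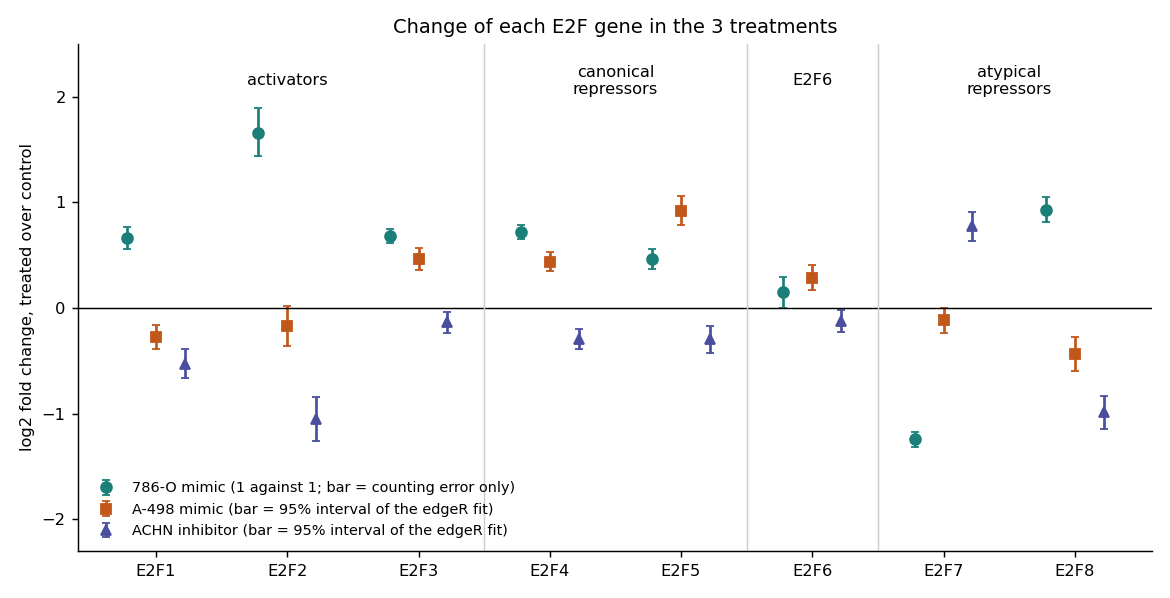
Log2 fold change of each E2F gene, treated over control, with 1 symbol per line; bars are 95% intervals of the edgeR fit in A-498 and ACHN and counting error only in 786-O, where there is 1 library a group. E2F1, E2F2 and E2F8 lie above 0 in 786-O and below it in ACHN, and E2F7 lies at -1.24 in 786-O and at 0.78 in ACHN.

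The 8 members therefore fell into 3 patterns by sign. E2F1, E2F2 and E2F8 were higher with the mimic in 786-O and lower in A-498 and ACHN (E2F2 in A-498 not past the test). E2F3, E2F4, E2F5 and E2F6 were higher with the mimic in both lines and lower with the inhibitor, E2F6 in ACHN not past the test and E2F3 there by a call that several libraries decide. E2F7 alone was lower with the mimic in 786-O and higher with the inhibitor in ACHN. In A-498 E2F7 also lay below 0 with the mimic, not past the test (-0.12). Set against each other in 1 fit, the mimic effects in 786-O and A-498 differed past the threshold for 7 members, 5 with the higher value in 786-O and 2 with the lower, beside 16.5% and 13.2% of 22587 genes (29.6% in all). These are the values by which the family was chosen, and the spread in that fit comes from A-498 alone. With a fixed, wider spread only E2F2 passed, beside 1.24% of all genes.

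The make-up of the family shifted with these changes. E2F7 made up 23.3% of the summed family level (CPM per kb) in the 786-O control and 7.40% with the mimic. In ACHN its share was 24.7%, 25.7% and 22.1% in controls and 43.4%, 38.8% and 39.0% with the inhibitor, and in A-498 6.93% and 7.70% in controls and 5.69% and 5.81% with the mimic. Per kilobase of joined exons (6291 bases for E2F7, 3596 for E2F4), E2F7 came level with E2F4 in ACHN cells with the inhibitor. The levels were 45.9 ± 4.67 and 43.2 ± 1.04 CPM per kb (SD, n = 3), values that overlapped and whose closeness depends on these lengths. The activators together made up 32.5% of the family in the 786-O control and 40.4% with the mimic. In A-498 they made up 33.9% and 33.6% in controls and 28.1% and 28.4% with the mimic. In ACHN they made up 15.3% to 15.8% in controls and 11.0% to 12.2% with the inhibitor.

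**Figure D3:**
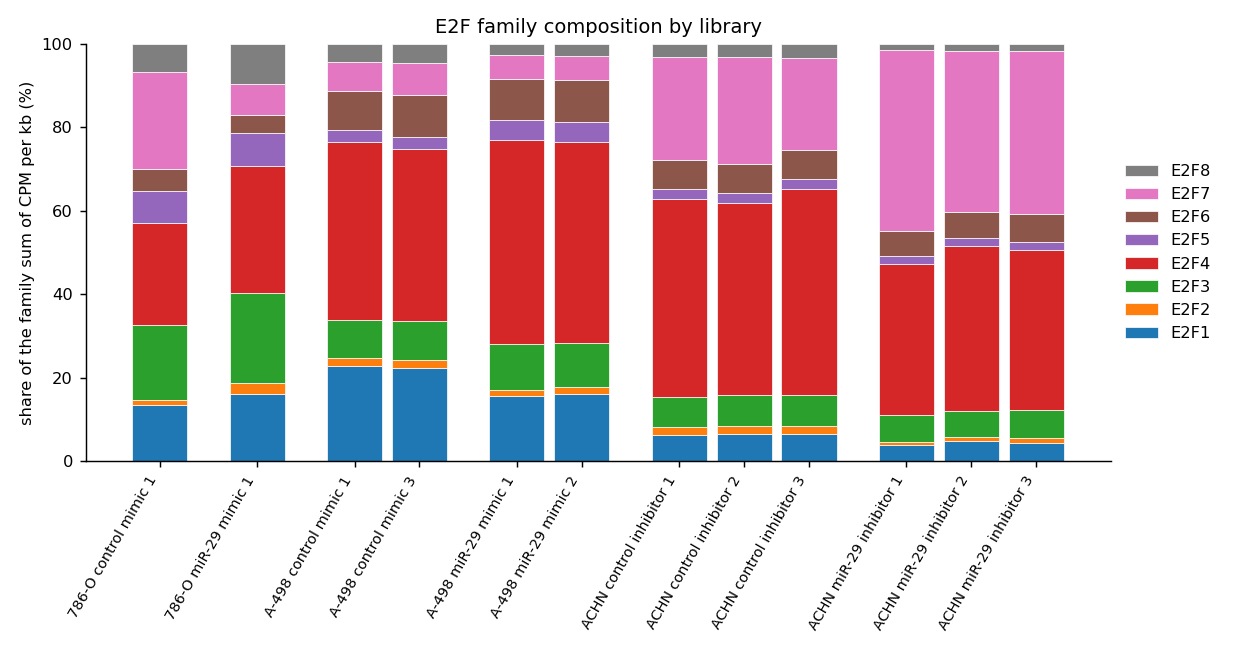
Each bar is 1 library, and the coloured parts are each gene's share in percent of the family's summed CPM per kb. E2F7 takes 7.40% in the 786-O mimic library and 38.8% to 43.4% in the ACHN inhibitor libraries, and E2F4 is the largest part in the control libraries of every line.

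The ratio of E2F7 to E2F8, both per kilobase, shows how the atypical pair parted. It was 3.52 in the 786-O control and 0.778 with the mimic. In ACHN it was 8.07, 8.32 and 6.75 in controls and 31.0, 24.0 and 23.8 with the inhibitor. In A-498 it was 1.61 and 1.70 in controls and 2.10 and 2.03 with the mimic, a shift in the direction of ACHN and against that of 786-O.

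The DP proteins pair with E2F1 to E2F6 on DNA. TFDP1, the main partner, stood at 84.8 and 95.2 CPM in the 786-O control and mimic libraries, and its change in A-498 did not pass the test (-0.05, 95% interval -0.14 to 0.03). TFDP1 fell in ACHN (-0.19 ± 0.046). TFDP2 fell with the mimic in A-498 (-0.54 ± 0.046), rose with the inhibitor in ACHN (0.23 ± 0.050) and was lower with the mimic in 786-O (log2 -0.60). TFDP3 was too low to test.

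The pocket proteins bind and restrain E2Fs. RB1, the partner of the activators, did not pass the test in A-498 (-0.01, 95% interval -0.11 to 0.09) or ACHN (-0.11, -0.22 to 0.00), and its log2 fold change in 786-O was 0.15. RBL2, the partner of E2F4 and E2F5, fell in A-498 (-0.44 ± 0.042), rose in ACHN (0.16 ± 0.046) and was lower in 786-O (-0.50). RBL1 fell in A-498 (-0.20 ± 0.054), was not past the test in ACHN (-0.11, -0.20 to -0.01) and was higher in 786-O (0.49).

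In the MuvB complex, which joins E2F4 and RBL2 to silence cell cycle genes and later MYBL2 and FOXM1 to activate mitotic ones, 5 of 7 genes were called lower in A-498 and none of them higher, against 1 lower and 3 higher with the inhibitor in ACHN. Over all genes 27% were called lower and 25.5% higher in A-498, and 14.4% and 17.3% in ACHN. MYBL2, itself a classic E2F target, stood at 99.3 and 110.2 CPM in A-498 controls and 17.2 and 18.1 CPM with the mimic (5.93-fold lower, -2.57 ± 0.060). It went from 176.3 to 30.5 CPM in 786-O (-2.53), and from between 67.7 and 77.5 CPM to between 104.4 and 115.1 CPM in ACHN (0.55 ± 0.056). MYBL2 thus had the sign of E2F7 and not that of E2F1 in 786-O and ACHN. In A-498 it fell, as did E2F1 (-0.27), while E2F7 did not pass the test (-0.12). FOXM1 fell in A-498 (-0.27 ± 0.045), did not pass the test in ACHN (-0.07, 95% interval -0.16 to 0.02) and stood at 0.34 in 786-O. Of 9 partners of E2F6, 5 were called lower and 2 higher with the mimic in A-498, and with the inhibitor in ACHN 2 were called lower, beside 52.5% and 31.7% of all genes called in either direction.

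Of 16 upstream regulators of G1, the kinases, cyclins and inhibitors that control the pocket proteins, 13 could be tested in A-498, with 7 lower and 4 higher, and all 16 in ACHN, with 1 lower and 7 higher, beside 27% lower and 25.5% higher over all genes in A-498 and 14.4% and 17.3% in ACHN. CDK6, the kinase that phosphorylates RB1, fell with the mimic in A-498 (-1.72 ± 0.057), was -2.89 in 786-O and rose with the inhibitor in ACHN (0.58 ± 0.043). CDKN2C, an inhibitor of CDK6, fell in A-498 (-1.39 ± 0.051) and rose in ACHN (0.31 ± 0.075), and stood at -0.01 in 786-O. CDC25A, a phosphatase that activates CDK2 and an E2F target, rose in A-498 (0.50 ± 0.059) and fell in ACHN (-0.20 ± 0.044), with 0.27 in 786-O. CDKN1A, the kinase inhibitor p21, rose in A-498 (0.57 ± 0.039) and in ACHN (0.82 ± 0.047) and was -0.61 in 786-O. CCND2, a D-type cyclin, rose in ACHN (0.79 ± 0.042) and was too low to test in the other lines. MYC, which drives E2F2 transcription among other genes, fell in A-498 (-0.52 ± 0.049), was -1.06 in 786-O and did not pass the test in ACHN (-0.06, 95% interval -0.15 to 0.04).

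A list of 40 genes known as G1/S targets of E2F, mostly replication genes, went down in A-498 and ACHN and was mixed in 786-O. In A-498, 33 were called lower and 1 higher, beside 27% and 25.5% of all genes. The median log2 fold change there was -0.39, beside 0.00 over all genes. In ACHN, 30 were called lower and 1 higher, beside 14.4% and 17.3% of all genes, with a median of -0.27 beside 0.00 over all genes. In 786-O, 5 lay below -0.5 and 5 above 0.5, beside 22.2% and 18.8% of all genes. Of the 40 genes, 28 lay above 0 there (median 0.12, beside -0.01 over all genes). At a fold of at least 0.5 on the log2 scale, 16 of the lower calls remained in A-498 and 4 in ACHN. The share of all genes at this minimum is not given.

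GINS2, a subunit of the replicative helicase, fell most in A-498 (-1.85 ± 0.053), where DSCC1, a clamp-loading factor, fell by 1.22 on the log2 scale, and PCNA, the sliding clamp, was the 1 gene called higher (0.14 ± 0.037). GINS2 was also lower in 786-O (-1.18) and fell less in ACHN (-0.16 ± 0.043). In ACHN the helicase subunit MCM6 (-0.69 ± 0.050) and the methylation factor UHRF1 (-0.59 ± 0.055) fell most, and GINS1 was the 1 called higher (0.45 ± 0.047). GINS1 fell in A-498 (-1.01 ± 0.046). MCM6 and UHRF1 stood at 0.22 and 0.23 in 786-O.

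Of 25 G2/M genes, 14 were called lower and 4 higher in A-498 (median -0.22), beside 27% and 25.5% of all genes. In ACHN 16 were called lower and 2 higher (median -0.17), beside 14.4% and 17.3%, and the median over all genes was 0.00 in both lines. In 786-O, 15 of 25 lay above 0.5 and 1 below -0.5 (median 0.60), beside 18.8% and 22.2% of all genes. PLK1 (-1.16 ± 0.054) and CCNA2 (-0.92 ± 0.045) fell most in A-498, and the mitotic kinases AURKA (0.45 ± 0.037) and BUB1 (0.30 ± 0.038) rose there. CDC20 (-0.44 ± 0.045) and BUB1 (-0.40 ± 0.045) fell most in ACHN, with CDC25C (0.23 ± 0.069) and CCNA2 (0.13 ± 0.046) called higher. AURKA, BUB1 and CDC20 were at 1.12, 1.07 and 1.09 in 786-O, and PLK1 was at -0.69. The part of such shifts in cycling genes in the E2F values was not tested.

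**Figure D4:**
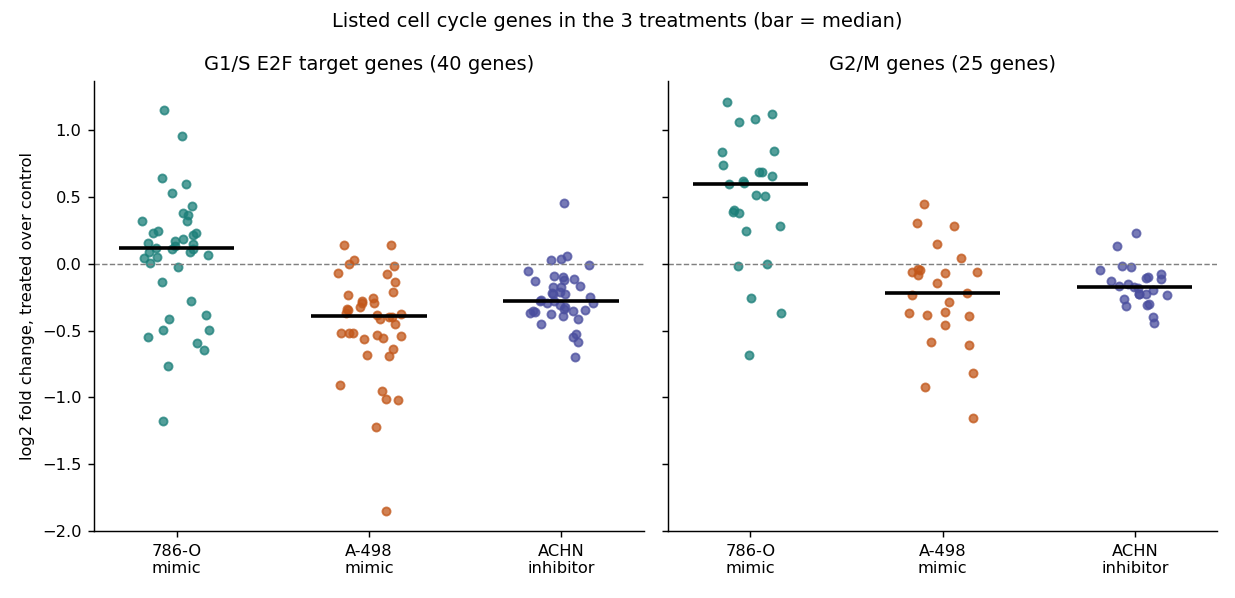
Each point is the log2 fold change, treated over control, of 1 gene of the G1/S E2F target list (left, 40 genes) or the G2/M list (right, 25 genes) in each line, and the black bar is the median. The medians lie at -0.39 and -0.22 in A-498, at -0.27 and -0.17 in ACHN and at 0.12 and 0.60 in 786-O.

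The genes most like each member were found among 8729 well expressed genes, by Pearson's r of log2 CPM centred within each line over the 12 libraries. These r describe shared libraries and carry no test. E2F1 was most like E2F8 (r = 0.981), followed by PAXIP1 (0.972) and TTF2 (0.967), and E2F8 was most like the splicing factor SRSF1 (0.982), E2F1 (0.981) and CDCA7 (0.980). E2F2 was most like NAB1 (0.980), PIGW (0.974) and ID2 (0.974). E2F7 was most like PRKAB2 (0.989), KLHL28 (0.988) and MTMR9 (0.988). E2F3 was nearest to NBAS, CCN3 and CASK (0.988 to 0.990), E2F4 to RNF4, FLOT1 and EIF3D (each 0.987), E2F5 to EEF1B2, SIPA1L1 and APOBEC3B (0.991 to 0.993) and E2F6 to GTF3C3, ZNF107 and CDC40 (0.986 to 0.989). Within the family the r of E2F7 over the 12 libraries was negative with every other member, from -0.966 with E2F2 to -0.538 with E2F5. It was -0.891 with E2F1 and -0.884 with E2F8. This did not hold in each line. In A-498 the log2 fold change of E2F7 (-0.12) had the sign of E2F1 (-0.27), E2F2 (-0.17) and E2F8 (-0.43). E2F7 and E2F2 did not pass the test there. E2F5 ran with E2F6 (0.964).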

How the data were processed

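The authors aligned paired reads of ribosomal RNA-depleted, stranded libraries to GRCh38 with HISAT2 and deposited counts per gene from HTSeq (intersection-strict mode, reverse strand, Ensembl genes). Further A-498 libraries that the authors set aside for possible mislabelling were not analysed here. Reads outside genes, ambiguous or of low quality (37.2% to 48.0% of each table) stayed out of library sizes. Symbols matched 98.1% of gene identifiers.

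edgeR 4.0.16 (R 4.3.3) was run per line with TMM scaling, filterByExpr and the quasi-likelihood test, adjusted by Benjamini-Hochberg over all genes tested, with calls at 0.05. In 786-O the log2 ratio of scaled CPM (prior count 2, at least 10 reads in all) was taken, with an exact binomial 95% interval that covers counting error only. The script was tested on simulated data. Lengths are union exons of the GENCODE annotation, and the 5 UTR matches found in members were read back from the genome by coordinate (5 of 5).

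Members and gene lists were chosen with earlier results of these data known. Text names all members, DP and pocket proteins, MYBL2, FOXM1, MYC, and from the G1 regulator, G1/S and G2/M lists the 2 strongest calls each way in A-498 and ACHN. The study calls the A-498 and ACHN libraries biological replicates. No 2 were duplicates (chi-square per degree of freedom 3.60 to 11.0). Numbers shared by ACHN groups did not pair libraries (r = 0.04, -0.05 and 0.00). DESeq2 1.42.0, other scalings, no filter, a 0.5 fold minimum and left-out libraries were alternatives.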

Additional observations from a re-analysis of the deposited data

Results flagged for a closer look

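The response to the mimic in 786-O was set against that in A-498, and 7 of 8 E2F genes passed the interaction term of edgeR's quasi-likelihood fit, in which the spread comes from A-498 alone since 786-O has 1 library a group. Over all genes, 29.6% of 22587 passed, and the family was chosen by these effects, so the values are a description. With the spread fixed at a coefficient of variation of 20%, where the fit itself gave 3.84%, E2F2 alone passed. Over all genes 1.24% passed at this fixed spread. The log2 effect in 786-O exceeded that in A-498 by 1.00 ± 0.099 (SE) for E2F1, 1.90 ± 0.16 for E2F2, 1.42 ± 0.12 for E2F8, 0.34 ± 0.078 for E2F4 and 0.27 ± 0.084 for E2F3. The difference was -1.07 ± 0.092 for E2F7 and -0.40 ± 0.11 for E2F5. E2F6 did not pass (-0.09, 95% interval -0.32 to 0.15).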

How the results depend on the processing

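No E2F value reversed in any comparison. With a minimum of 0.5 on the log2 scale, A-498 members called lower went from 2 to 0 and higher from 4 to 1. ACHN members called lower went from 6 to 3. The share of all genes at this minimum is not given, so nothing is read from these counts. Without A-498 control replicate 1, which leaves 1 control library, E2F2 stood at -0.25 and E2F7 at -0.18. With the spread fixed at a coefficient of variation of 0.2, the 786-O and A-498 mimic effects differed upward for 1 member (E2F2) in place of 5. Downward they differed for 0 in place of 2. Over all genes 0.438% then passed upward and 0.806% downward, in place of 16.5% and 13.2%. Without A-498 mimic replicate 1 the difference was 0.20 for E2F3 and 0.26 for E2F4, and without mimic replicate 2 it was 0.26 for E2F3. With library size E2F3 (0.18) did not pass. In that comparison 44.4% of all calls were downward, and 58.4% with library size. E2F3 in ACHN also failed with no filter (-0.12). E2F6 passed between the control lines without A-498 control replicate 3 (-0.15). In 786-O, 24 of 24 values under other scalings or a prior count of 0.5 stayed within the counting interval. The replicate block in ACHN gave 2638 lower and 3125 higher genes in place of 2578 and 3102, and changed no call of a member (E2F7 0.78, E2F2 -1.06). In A-498 and 786-O no paired fit could be made, since the A-498 groups share 1 number and 786-O has 1 library a group. Without replicates 786-O gives ratios only, and the low depth of E2F2 (211 to 679 reads) widens its error.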
